A study of Mus musculus with 4 samples.

Results

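The binding sites of TCF1 in Sox13hi γδ thymocytes were set beside those in CD4 CD8 double-positive (DP) thymocytes. The members are the 10000 best-ranked peaks of each of these lists on chromosomes 1 to 19, ranked by the score that the authors gave each peak. That makes 20000 of the 143547 peaks of the series, or 20000 of the 125825 peaks of these lists on chromosomes 1 to 19. A peak was taken as shared when it overlapped any peak of the full other list by at least 1 bp, and otherwise as restricted to its own list. The γδ cells were CD24+ thymocytes with high cyan fluorescence, from C57BL/6 mice of genotype TCRbeta KO.Sox13 ECFP KI/+, which lack the TCRβ chain and have the cyan fluorescent protein knocked into 1 of the Sox13 alleles. The DP cells came from wild-type C57BL/6 mice. Both chromatin samples came from equal numbers of sorted cells fixed with 1% formaldehyde and precipitated with the same antibody against TCF1. The series also holds a TCF1 list from γδ thymocytes with low or no cyan signal (Sox13lo) of the same genotype as the Sox13hi cells, and an input sample that was not analysed here.

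TCF1, the product of Tcf7, is a high mobility group protein that binds and bends DNA, is induced early in T cell development and can act with β-catenin or with corepressors of the Groucho family. SOX13 belongs to the same protein superfamily and marks a set of immature γδ thymocytes from which many cells that make interleukin 17 arise. DP thymocytes are the main stage of the αβ lineage, at which the T cell receptor α chain is rearranged and cells are selected, and TCF1 is needed for their formation and survival.

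Each population was represented by 1 library, so there was no spread between replicates and no test between populations. The cell type differed together with the genotype, and the effects of lineage, of the missing TCRβ chain and of the Sox13 reporter allele cannot be told apart. The labels do not say how many animals were pooled, and they give no age. Peak positions are on mm9, for which no gene positions or sequence were used here. Sites are therefore given by position, genes and motifs were not analysed here, and the sorted populations were not checked at Sox13, Cd4 or Cd8a. Read depth is unknown, and intervals in parentheses are 95% Wilson intervals that cover counting error only.

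The best-ranked TCF1 peaks of Sox13hi cells more often had a counterpart in DP cells than the best-ranked DP peaks had in Sox13hi cells. Of the 10000 Sox13hi peaks, 3702 overlapped a DP peak, which is 37.0% (36.1 to 38.0), and 6298 were restricted. Over all 40156 Sox13hi peaks the share was 14.3%. Of the 10000 DP peaks, 2277 overlapped a Sox13hi peak, or 22.8% (22.0 to 23.6), and 7723 were restricted. Over all 85669 DP peaks the share was 6.45%. These shares follow from the rule that sorts the peaks and are descriptions. The list that each set was compared with also differed in length. With only the best 10000 peaks of the other list as partners, the shares were 20.5% and 19.4%, which count nearly the same overlaps. Merging the best-ranked peaks of both lists gave 17950 regions, of which 1941, or 10.8%, held a best-ranked peak of both. A further 7950 held best-ranked Sox13hi peaks alone and 8059 best-ranked DP peaks alone.

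Sharing was most frequent at the best ranks and declined over the 10000 peaks of each list. Among ranks 1 to 1000, 82.7% (80.2 to 84.9) of peaks were shared in Sox13hi cells and 70.9% (68.0 to 73.6) in DP cells. Among ranks 2001 to 3000 the shares were 61.5% (58.4 to 64.5) and 25.9% (23.3 to 28.7). Among ranks 9001 to 10000 they were 10.7% (8.93 to 12.8) and 8.70% (7.11 to 10.6), with overlapping intervals. The scores at the limit were 11.8 for Sox13hi and 52.1 for DP, and the next peak outside had the same score in each list. There were 61 Sox13hi and 235 DP peaks tied at these scores, of which 16 and 151 were kept in order of position. The scale of the score differs between lists, so only ranks are set side by side.

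**Figure D1:**
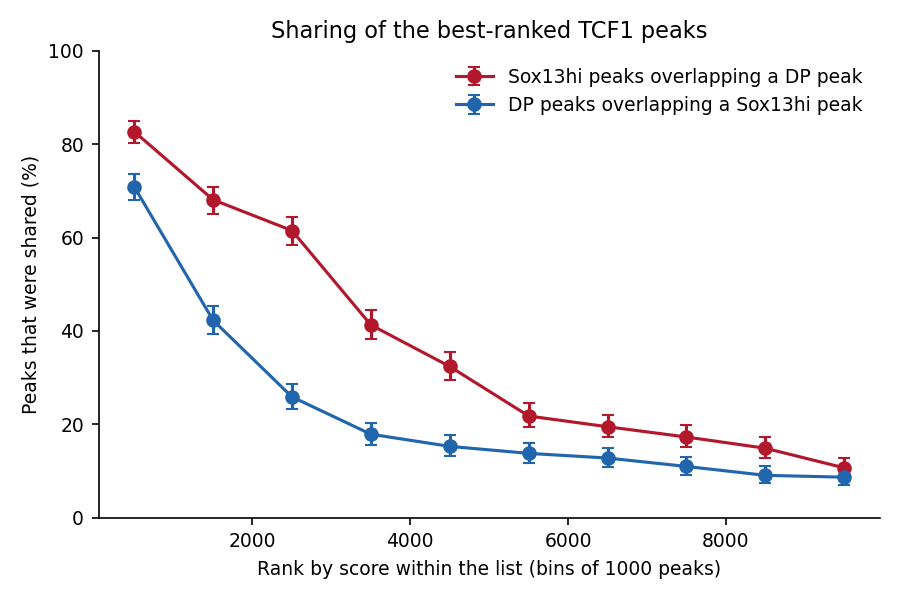
Share of best-ranked peaks that overlapped a peak of the full other list (y axis, percent) by rank within the list (x axis, bins of 1000 peaks), for Sox13hi peaks (red) and DP peaks (blue). Points are shares and bars are 95% Wilson intervals. The Sox13hi line starts at 82.7% and the DP line at 70.9%, and they end at 10.7% and 8.70%.

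Shared sites were wider than restricted sites in both populations. Sox13hi peaks that were shared had a median width of 250 bp (quartiles 200 and 350), and restricted ones 200 bp (150 and 250). DP peaks that were shared had a median of 450 bp (400 and 600), and restricted ones 350 bp (300 and 400). Wider peaks overlap others more easily, and width moved with the score. Within DP ranks 2001 to 5000, 35.8% (33.2 to 38.5) of peaks wider than 350 bp were shared, and 7.87% (6.69 to 9.23) of the others. Within Sox13hi ranks 2001 to 5000, 64.4% (60.8 to 67.9) of peaks wider than 250 bp were shared, and 39.2% (37.3 to 41.3) of the others. The wider peaks also had the higher median score within these ranks, 78.5 against 74.1 in DP cells and 25.5 against 21.0 in Sox13hi cells. Resizing every peak of both lists to 500 bp gave shares of 40.1% for Sox13hi and 23.7% for DP.

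Sites called in both populations often held different ranks in the lists, which also differ in length. Of the 3702 shared Sox13hi peaks, 2050, or 55.4% (53.8 to 57.0), had a partner among the best 10000 DP peaks, and 702 had their best partner in the lower 50% of the DP list. The median best rank of the DP partner was 7236 of 85669, and the shared Sox13hi peaks themselves had a median rank of 2520.5 of 40156. Of the 2277 shared DP peaks, 1941, or 85.2% (83.7 to 86.6), had a partner among the best 10000 Sox13hi peaks, and 146 had theirs in the lower 50% of that list. The median rank of the Sox13hi partner was 2437 of 40156, and the shared DP peaks themselves had a median rank of 2019 of 85669. Spearman's rho between the ranks was 0.26 over the shared Sox13hi peaks and 0.24 over the shared DP peaks, and peaks of 1 library are not independent points. Own ranks were limited to the best 10000 while partner ranks ran over the full other list, so rho does not describe the full lists. Where peaks overlapped, their midpoints lay close together. The median distance from a shared Sox13hi peak to the midpoint of its DP partner was 50 bp, the step of the grid on which the peaks were called. The DP partner was the wider peak in 67.7% of cases.

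**Figure D2:**
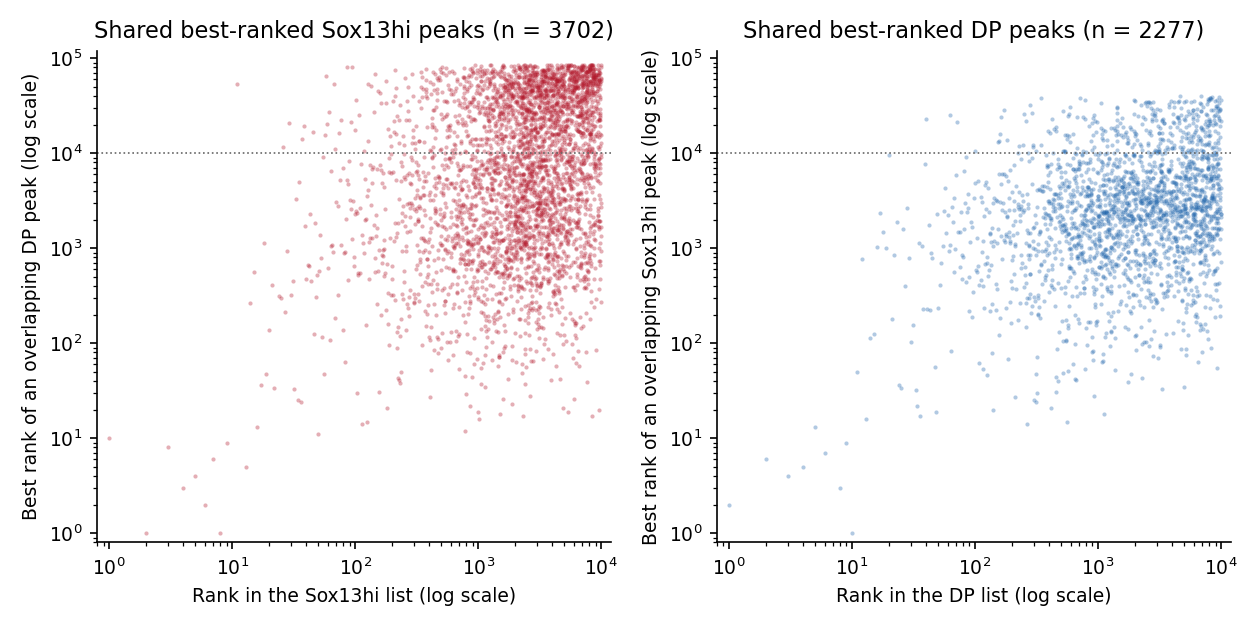
Rank of shared best-ranked peaks within their own list (x axis, log scale) against the best rank of an overlapping peak in the other list (y axis, log scale), for 3702 Sox13hi peaks (left, red) and 2277 DP peaks (right, blue). Each point is 1 peak and the dotted line marks rank 10000 of the other list. Of the shared Sox13hi peaks 2050 lie on or below the line, and of the shared DP peaks 1941.

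The highest scores belonged to a few sites found in both populations and in Sox13lo cells. The best Sox13hi peak, chr6:103599151-103599450, had a score of 4707 in Sox13hi cells (rank 1), 775 in DP cells (rank 10) and 10742 in Sox13lo cells (rank 1). The best DP peak, chr17:39982401-39983350, had a score of 17027 in DP cells and overlapped the Sox13hi peak at rank 2, with a score of 2682. Neighbouring DP peaks at chr17:39981051-39981500 (rank 2) and chr17:39981751-39982100 (rank 5) also had Sox13hi partners, at ranks 6 and 13. Several of the best ranks thus belonged to a single stretch of chromosome 17 and are not separate sites of the genome. A site on chromosome 16, chr16:11143851-11144800 in the DP list, stood at rank 6 in DP cells and rank 7 in Sox13hi cells. Another on chromosome 9, chr9:110183701-110184150, stood at rank 9 in both. Whether these sites lie in repeats was not tested, since no mm9 sequence was used. Leaving out peaks over 20 times the median score, which removed 14 Sox13hi and 15 DP peaks, gave shared shares of 36.9% and 22.7%.

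Of the 1000 best Sox13hi peaks, 256 were also in the best 1000 DP ranks, 338 had DP ranks of 1001 to 10000, and 151 had lower ranks in the upper 50% of that list. A further 82 had their best partner in the lower 50%, and 173 had no DP peak. These 82 sites, at high rank in Sox13hi cells and low rank in DP cells, were all in the Sox13lo list, with a median rank there of 1579 of 10394. So were 998 of the 1000 best Sox13hi peaks, and nothing particular to the 82 sites is read from it. The peak chr2:27356851-27357900 stood at rank 11 of the Sox13hi list with a score of 225, at rank 49 of the Sox13lo list with 224, and with 19.4 at rank 53916 of 85669 in DP cells. Its DP partner was 250 bp wide, against 1050 bp in Sox13hi cells. The peak chr1:136456751-136457450 stood at rank 85 in Sox13hi cells, rank 643 in Sox13lo cells and rank 81249 in DP cells. Similar places were held by chr7:138009401-138009950, at ranks 58, 1241 and 64975, and by chr15:78744451-78745000, at ranks 95, 1051 and 81032. Such sites count as shared under the rule, although the DP call was in the lower 50% of its list. These sites and those of the next paragraph were chosen after their values were seen.

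Of the 1000 best DP peaks, 253 were in the best 1000 Sox13hi ranks, 393 at ranks 1001 to 10000, 38 lower in the upper 50% and 25 in the lower 50% of that list. The other 291 had no Sox13hi peak. The 25 peaks with a partner in the lower 50% were all in the Sox13lo list as well, as were 708 of the 709 shared peaks of these ranks. The peak chr12:20317751-20318700 had a score of 357 at rank 40 in DP cells and 140 at rank 238 in Sox13lo cells, and a score of 7.07 at rank 22909 of 40156 in Sox13hi cells. The peak chr19:47327451-47328250 stood at rank 249 in DP cells, rank 50 in Sox13lo cells and rank 25833 in Sox13hi cells. The peak chr17:26975951-26976450 stood at ranks 345, 1418 and 37729 in the same order.

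The Sox13lo list, which the rule did not use, separated shared from restricted sites, and it held a larger part of the Sox13hi-restricted than of the DP-restricted sites. Of the 3702 shared Sox13hi peaks, 3398, or 91.8% (90.9 to 92.6), overlapped a Sox13lo peak, and of the 6298 restricted ones 1822, or 28.9% (27.8 to 30.1). Over all Sox13hi peaks the share was 16.8%, and over the best 10000 it was 52.2%. Of the 2277 shared DP peaks, 2185, or 96.0% (95.1 to 96.7), overlapped a Sox13lo peak, and of the 7723 restricted ones 583, or 7.55% (6.98 to 8.16). Over all DP peaks it was 6.18%, and over the best 10000 it was 27.7%. The DP-restricted share was thus near the level of the whole list and below that of the best 10000. The difference between Sox13hi-restricted and DP-restricted sites was 21.4 percentage points (20.1 to 22.6, Newcombe interval of counting error). Sox13lo and Sox13hi cells share their genotype and lineage, and neither the part of each in this difference nor that of the lengths of the lists was tested.

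Since shared sites had better ranks, the Sox13lo shares were also read within bins of 1000 ranks. At ranks 1 to 1000, 172 of 173 Sox13hi-restricted peaks were in the Sox13lo list, which is 99.4% (96.8 to 99.9), and 826 of 827 shared ones. At the same ranks 119 of 291 DP-restricted peaks were in the Sox13lo list, which is 40.9% (35.4 to 46.6), and 708 of 709 shared ones. The lists hold 40156 and 85669 peaks, so the same ranks are a larger part of the Sox13hi list, and these shares are set side by side with no test of their difference. At DP ranks 1001 to 2000 the share of restricted peaks in the Sox13lo list was 19.9% (16.9 to 23.4), lower than in the first bin. In ranks 4001 to 5000, 31.1% (27.7 to 34.7) of Sox13hi-restricted and 86.4% (82.3 to 89.7) of shared peaks were in the Sox13lo list. For DP peaks of those ranks the values were 5.90% (4.51 to 7.70) and 95.4% (90.9 to 97.8). In every bin but the first of the Sox13hi list, the Newcombe interval of the difference between shared and restricted peaks lay above 0. These intervals treat peaks of 1 library as independent counts and are no test.

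**Figure D3:**
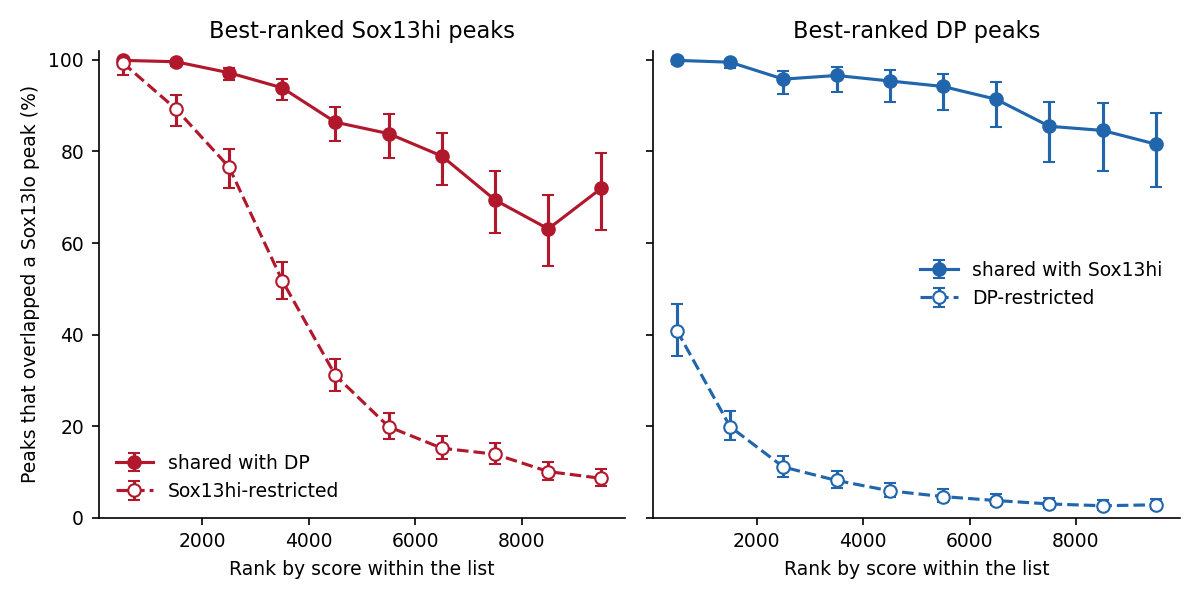
Share of best-ranked peaks that overlapped a Sox13lo peak (y axis, percent) by rank within the list (x axis, bins of 1000 peaks), for Sox13hi peaks (left) and DP peaks (right). Filled points with solid lines are shared sites, open points with dashed lines are restricted sites, and bars are 95% Wilson intervals. In the first bin the restricted sites start at 99.4% on the left and 40.9% on the right.

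The 3 lists together placed each best-ranked peak in 1 of 4 groups. Of the Sox13hi peaks, 3398 were in all 3 lists, 304 in DP but not Sox13lo, 1822 in Sox13lo but not DP, and 4476, or 44.8% (43.8 to 45.7), in neither. Of the DP peaks, 2185 were in all 3 lists, 92 in Sox13hi but not Sox13lo, 583 in Sox13lo but not Sox13hi, and 7140, or 71.4% (70.5 to 72.3), in neither. The Sox13hi peaks found in no other list had a median rank of 7080, against 3511 for those restricted to the γδ lists and 2312 for those in all 3. The DP peaks found in no other list had a median rank of 5886, against 2660 for those shared with Sox13lo alone. Peaks shared by Sox13hi and DP cells and missing from Sox13lo were few and of lower rank, with medians of 6743 and 7011 in the respective lists. The best of them in the Sox13hi list was chr10:104590751-104591200, at rank 968 there and rank 10784 in DP cells. The Sox13lo list is the shortest, with 10394 peaks on these chromosomes, so a site missing from it may have lain below its lowest score.

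The best-ranked Sox13hi-restricted sites were wide and present in Sox13lo cells, as were other Sox13hi peaks of these ranks. Of the 1000 best Sox13hi peaks, 998 overlapped a Sox13lo peak. Median widths at these ranks were 450 bp for shared and 400 bp for restricted peaks. The 10 best restricted sites stood at Sox13hi ranks 10 to 119, were 400 to 1000 bp wide and all overlapped a Sox13lo peak. The first, chr17:36621551-36622050, had a Sox13hi score of 236 and a Sox13lo score of 202 (Sox13lo rank 68), and the nearest DP peak lay 1750 bp away. The second, chr5:105356801-105357600, had scores of 207 and 304 (Sox13lo rank 18), with the nearest DP peak at 42700 bp. The third, chr3:79090401-79091400, was the widest Sox13hi-restricted peak at 1000 bp, with scores of 129.0 and 91.8. Next came chr8:74000001-74000850, scored 88.3 in the Sox13hi list and 104 in the Sox13lo list, and chr2:27355301-27355950 with 84.5 and 91.6. The latter lay beside the chromosome 2 peak at Sox13hi rank 11 described above, and its nearest DP peak was 1800 bp away. The remaining 5 were chr16:17806951-17807600, chr16:94511501-94512000, chr5:80243051-80243500, chr9:22272301-22272700 and chr13:99584601-99585300, with Sox13hi scores of 77.6 to 82.0. Their nearest DP peaks lay 800 to 39200 bp away.

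Sox13hi-restricted sites that were also missing from Sox13lo cells began at a lower rank. The best was chr8:67792901-67793100, 200 bp wide, with a score of 66.5 at rank 224, and the nearest DP and Sox13lo peaks lay 2500 and 160700 bp away. The next, chr11:109428901-109429150, had a score of 39.8 at rank 1156. The 10 best of this kind were 150 to 350 bp wide and stood at ranks 224 to 1423. They were narrower than the 10 best Sox13hi-restricted sites, whose widths ran from 400 bp, but those stood at better ranks, 10 to 119. The median width of all Sox13hi peaks fell from 450 bp at ranks 1 to 1000 to 300 bp at ranks 1001 to 2000. At chr10:90633551-90633900 the gap was 350 bp to a DP peak and 150 bp to a Sox13lo peak, so this site was beside a called peak in both.

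The best-ranked DP-restricted sites were divided between those with and those without a Sox13lo peak. Of the 10 best, at DP ranks 7 to 96, 7 overlapped a Sox13lo peak. Over all of the 1000 best DP peaks the share was 82.7%, and over the 291 restricted ones among them 40.9%. Nothing particular to the 10 sites is read from their count. The first, chr9:3020201-3020700, had a score of 1837 in DP cells and 745 in Sox13lo cells (rank 9), and the nearest Sox13hi peak lay 174900 bp away. The third, chr9:3001551-3001750, had a score of 341 and lay in the same proximal stretch of chromosome 9, which was not checked for repeats. The second, chr2:169303401-169304000, had scores of 391 in DP and 85.7 in Sox13lo cells. Further sites with Sox13lo peaks were chr18:58661301-58661850 (scores 333 and 108), chr17:32533301-32533750 (322 and 178) and chr5:113303101-113303600 (309 and 43.7). To these were added chr12:9921201-9922000 (287 and 68.4) and chr16:31162601-31163350 (286 and 275). The latter stood at rank 74 of 85669 in the DP list and rank 24 of 10394 in the Sox13lo list. These are sites called in DP cells and in Sox13lo γδ cells, with no call in the Sox13hi list.

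Another part of the well-ranked DP-restricted sites had no Sox13lo peak. After the chromosome 9 site at rank 46, the best were chr1:167689001-167689750, with a score of 272 at rank 92, and chr2:151773301-151773800, with 265 at rank 96. Their nearest peaks of the Sox13hi list were 22250 and 68250 bp away, and those of the Sox13lo list 50650 and 81400 bp. Then came chr9:41332101-41332650 with a score of 260, chr1:137450451-137451000 with 242.5 and chr17:10918651-10919650 with 242.1. The 10 best of this kind stood at DP ranks 46 to 202, whereas the corresponding Sox13hi sites stood at ranks 224 to 1423. The lists differ in length, so these ranks are no comparison by themselves. Within ranks 1 to 1000, 172 of the 291 DP-restricted peaks had no Sox13lo peak, and 1 of the 173 Sox13hi-restricted peaks. The widest DP-restricted peaks, 1000 to 1100 bp, were led by chr13:99264951-99266050.

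Few restricted sites lay directly beside a peak of the other list. Of the Sox13hi-restricted sites, 531, or 8.43% (7.77 to 9.14), had a DP peak within 500 bp, and of the DP-restricted sites 192, or 2.49% (2.16 to 2.86), had a Sox13hi peak within 500 bp. The median gap was 8850 bp to the nearest DP peak and 22100 bp to the nearest Sox13hi peak, and the DP list is the denser one. Of the Sox13hi-restricted sites 2.68% lay over 50 kb from any DP peak, and of the DP-restricted sites 22.0% lay as far from any Sox13hi peak. Sites beside a peak of the other list were more often in the Sox13lo list. Of Sox13hi-restricted sites within 500 bp of a DP peak, 67.6% (63.5 to 71.4) overlapped a Sox13lo peak, and of those at 10 to 50 kb, 24.8% (23.2 to 26.4). For DP-restricted sites the shares were 27.1% (21.3 to 33.8) and 6.64% (5.90 to 7.46). The nearer sites also had better median ranks, 4909 against 6342 in the Sox13hi list and 5574 against 5703 in the DP list. The Sox13lo shares by gap were not compared at matched ranks.

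**Figure D4:**
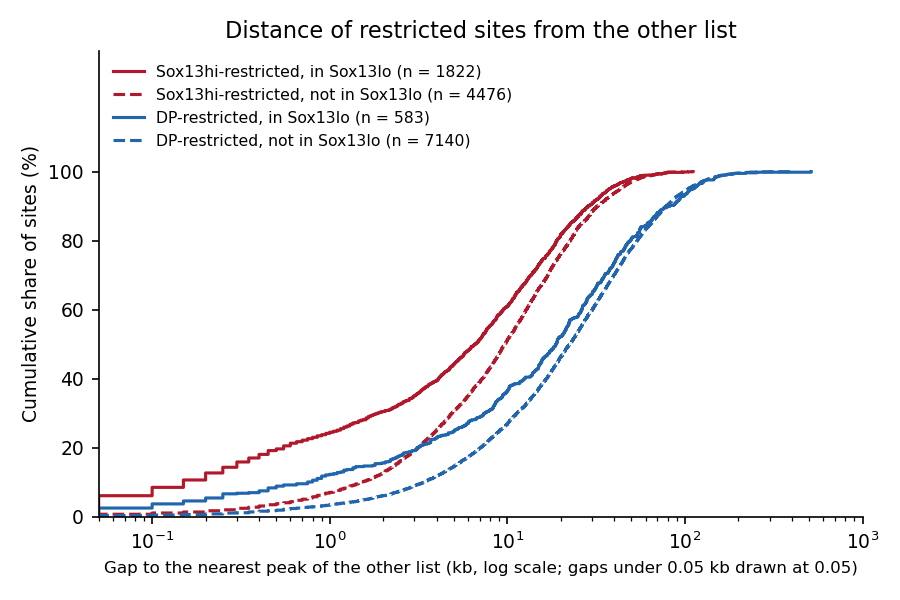
Cumulative share of restricted sites (y axis, percent) by the gap to the nearest peak of the full other list (x axis, kb, log scale), for Sox13hi-restricted (red) and DP-restricted sites (blue), with a Sox13lo peak (solid, 1822 and 583 sites) and without one (dashed, 4476 and 7140 sites). Over all restricted sites of a list, with and without a Sox13lo peak, the median gap was 8850 bp for Sox13hi and 22100 bp for DP.

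Restricted sites that were called in Sox13lo cells lay nearer to shared sites than those found in no other list. Of the 1822 Sox13hi-restricted sites with a Sox13lo peak, 15.4% (13.8 to 17.1) were within 10 kb of a shared best-ranked Sox13hi site, and of the 4476 without one 2.17% (1.78 to 2.64). For DP-restricted sites the shares were 9.43% (7.32 to 12.1) and 2.06% (1.75 to 2.41). Within ranks 5001 to 10000 the Sox13hi shares were 16.9% (14.0 to 20.2) and 2.0% (1.59 to 2.51). In DP cells at those ranks they were 7.33% (4.14 to 12.7) and 2.05% (1.67 to 2.52).

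Shared sites made up a different part of the best-ranked peaks on different chromosomes, which were not compared at matched ranks or widths. The share of Sox13hi peaks with a DP peak ran from 28.3% (24.3 to 32.7) on chromosome 14 to 47.2% (43.1 to 51.3) on chromosome 11, with 46.6% on chromosome 7. The share of DP peaks with a Sox13hi peak ran from 16.7% (13.2 to 20.9) on chromosome 16 to 31.0% (27.4 to 34.8) on chromosome 7. Chromosomes 14 and 16 had the lowest shares in both lists. Restricted sites of both lists were spread over the chromosomes in like proportion. The share of all Sox13hi-restricted sites divided by that of all DP-restricted sites ran from 0.845 on chromosome 9 to 1.17 on chromosome 13.

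**Figure D5:**
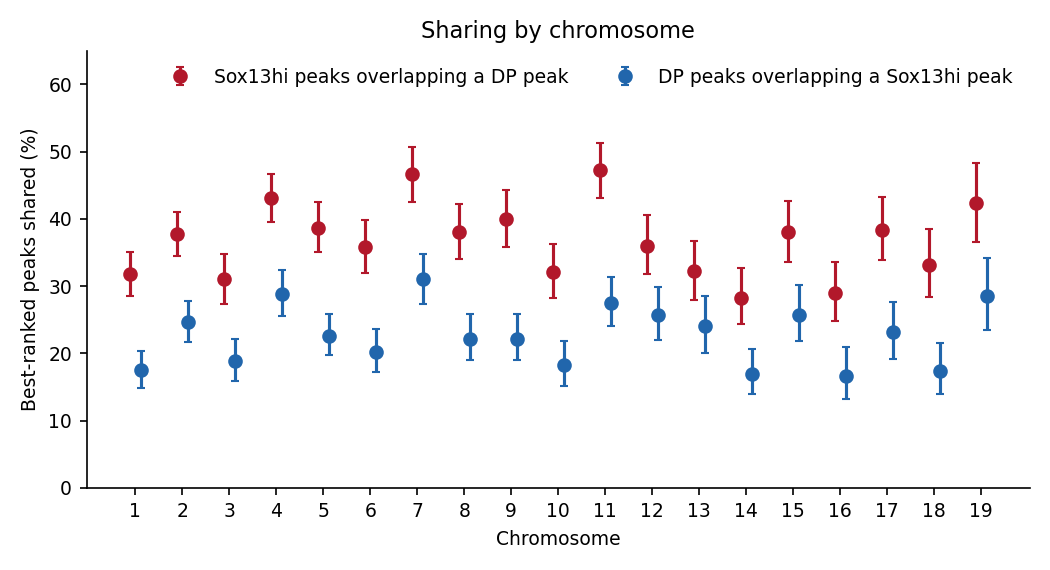
Share of best-ranked peaks that overlapped a peak of the full other list (y axis, percent) on each of chromosomes 1 to 19 (x axis), for Sox13hi peaks (red) and DP peaks (blue). Points are shares and bars are 95% Wilson intervals. The Sox13hi points run from 28.3% to 47.2% and the DP points from 16.7% to 31.0%.

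Over windows of 1 Mb, restricted sites of each kind were found in most windows, at a mean of 2.61 Sox13hi-restricted and 3.20 DP-restricted sites per window. Of 2416 windows with a peak of any list, 2187 held a Sox13hi-restricted site and 2294 a DP-restricted site. Windows with at least 5 Sox13hi-restricted sites made up 14.0% and windows with at least 5 DP-restricted sites 22.3%. There were 54 windows with at least 5 DP-restricted and no Sox13hi-restricted site, and 11 of the opposite kind. Relative to its mean, the variance of the number of sites per window was lower for restricted than for shared sites. The variance to mean was 1.28 for Sox13hi-restricted and 1.18 for DP-restricted sites, against 2.17 and 1.75 for shared ones.

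The densest windows were named after their counts were seen. The window of chromosome 10 from 80000001 to 81000000 held 14 Sox13hi-restricted sites, the highest number, beside 13 shared Sox13hi sites and 8 DP-restricted sites. Of these 14 sites, 11 overlapped a Sox13lo peak, where the share over all Sox13hi-restricted sites was 28.9%. That share fell from 99.4% at ranks 1 to 1000 to 8.62% at ranks 9001 to 10000. The 14 sites stood at ranks 185 to 8442 and were not compared at matched ranks. The best was chr10:80820101-80820600, with a score of 70.1 at rank 185 in Sox13hi cells and 76.0 at rank 1399 in Sox13lo cells. On chromosome 5 the window from 69000001 to 70000000 held 11 Sox13hi-restricted, 3 DP-restricted and no shared sites. The window of chromosome 2 from 171000001 to 172000000 held 12 DP-restricted sites and none of the other kinds. Of these 12 sites, 1 overlapped a Sox13lo peak, chr2:171867751-171868050, which is near the 7.55% of all DP-restricted sites. The best was chr2:171830701-171831050, with a score of 229.9 at DP rank 167. The nearest Sox13hi peaks of the 12 sites lay 12500 to 146850 bp away. On chromosome 17 the window from 43000001 to 44000000 held 12 DP-restricted and 2 Sox13hi-restricted sites.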

How the data were processed

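TCF1 peak lists of 1 library each from Sox13hi, Sox13lo and DP thymocytes were used. Each list, as deposited, has no header and gives positions and a score for every peak. The build, mm9, comes from the submitters' processing notes. Which aligner and peak caller made the lists, at which threshold, is not given in the sources used here. Starts and ends lie on a grid of 50 bp, and positions are printed 1-based with both ends included. Peaks were ranked by score, ties by position. Overlaps were computed in Python 3.11.15 (numpy 2.4.6, pandas 2.3.3), checked against bedtools 2.31.1 and tested on simulated lists. Intervals are Wilson or Newcombe intervals at 95%. Plots were drawn with matplotlib 3.10.9. The gene tables used for names lie on GRCm38, another build, so the planned results on promoters, genes, gene lists and motifs were not analysed here. The rule for named genes was applied to peaks instead: the 10 best-ranked shared and restricted peaks of each list. The peaks, lists and comparisons were chosen with earlier results of these data known. Reads are not told apart from amplified copies.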

Additional observations from a re-analysis of the deposited data

How the results depend on the processing

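Of 44 alternative values, 18 stayed within the counting interval of the reported share and 26 moved beyond it. In each setting run for them, Sox13hi peaks were more often in DP than DP peaks in Sox13hi. Most of these settings kept the full lists, which differ in length, as partners. With the best 10000 of the other list as partners, both shares count nearly the same overlaps. Sox13hi-restricted sites were more often in Sox13lo than DP-restricted sites in the settings named for them below, which did not include midpoints, the best 10000 of the other list, resizing or chromosome X. In the order Sox13hi peaks in DP and DP peaks in Sox13hi, a reciprocal overlap of 50% gave 26.3 and 13.7%, midpoints within 500 bp 40.3 and 23.8%, the best 5000 peaks 57.2 and 34.5%, the best 20000 peaks 22.8 and 14.4%, the best 10000 of the other list as partners 20.5 and 19.4%, and peaks resized to 500 bp 40.1 and 23.7%. With the DP list limited to the length of the Sox13hi list, a setting chosen after seeing the data, Sox13hi peaks in DP came to 29.4%. In that setting DP peaks in Sox13hi stayed at 22.8%.

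For presence in the Sox13lo list, in the order Sox13hi-restricted, shared Sox13hi, DP-restricted and shared DP sites, the best 5000 peaks gave 59.2, 96.9, 13.2 and 98.4%, and the best 20000 peaks 14.6, 83.2, 4.36 and 90.9%. A reciprocal overlap of 50% moved Sox13hi-restricted sites to 38.0%, DP-restricted sites to 16.4% and shared DP sites to 99.1%. The shorter DP list moved Sox13hi-restricted sites to 33.9% and shared Sox13hi sites to 96.0%. Keeping more or fewer peaks changes the ranks included, and a stricter overlap or a shorter other list lowers sharing by construction. Peaks that then cease to be shared count as restricted, which changes the restricted sites set beside the Sox13lo list. Elsewhere the cause was not tested. Leaving out extreme scores and keeping all peaks tied at rank 10000 (chosen after seeing the data) left the 6 shares within their intervals, and chromosome X, added for the shares between Sox13hi and DP alone, left both within theirs. Other settings for promoters, genes and motifs were left out, since no mm9 gene positions were used. No paired analysis was possible because there was a single library of each kind. Without read depths, the limit that sequencing sets on the shorter lists could not be given.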
